A study of Mus musculus with 2 samples.

Results

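Vascular smooth muscle cells were taken from 2 droplet libraries (10x Genomics 3' chemistry) of the brain of Shank3-/- mice as the barcodes with the contractile genes Acta2, Myh11 and Tagln. A barcode was a member when it held at least 5 unique molecular identifiers (UMIs) of these genes together, with at least 2 of the 3 detected, at most 2 UMIs of the endothelial genes Flt1, Pecam1 and Mecom together, and at most 1 UMI of Slc17a7, Cx3cr1, Kcnj8 and Abcc9 together. Barcodes under 500 genes or above 5% mitochondrial UMIs were not considered. By this rule 339 of 24541 barcodes were members (27561 were deposited). The fluconazole library held 155 of 11076, against 184 of 13465 in the vehicle library.

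One library came from Shank3-/- mice that drank water with fluconazole, an azole antifungal, for 2 weeks. The other came from Shank3-/- mice given vehicle (labelled MOCK). Both libraries thus shared this genotype, and there was no wild type library. Shank3 is a scaffold protein of excitatory synapses. The sample labels name brain and the design text prefrontal cortex, the strain, age, deleted exons and number of mice are not given, and cells and nuclei are both mentioned, so the droplets are called barcodes. Each treatment had 1 library, so no test between treatments was possible: intervals in brackets are at 95%, cover counting error of UMIs only, and are too narrow where a gene's UMIs lie in few barcodes.

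Vascular smooth muscle wraps arteries, arterioles and, more sparsely, veins of the brain and sets their diameter. Calcium entering through voltage-gated channels, or released from the sarcoplasmic reticulum, activates myosin light chain kinase, and phosphorylated myosin pulls on filaments of smooth muscle actin, while nitric oxide and cGMP relax the cell. Serum response factor with its co-activator myocardin drives many contractile genes through CArG boxes in their promoters. Pericytes, the mural cells of capillaries, share the receptors Notch3 and Pdgfrb with smooth muscle but hold little contractile protein.

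The contractile list of 30 genes is what the class is known for, and its promoters are shown because these genes stood together in the comparison with pericytes. A CArG box was searched as CC, then A or T at each of 6 positions, then GG, a pattern that is its own reverse complement, in the 250 bases before each RefSeq transcript start (GRCm38.p6). It was present for 6 of the 26 contractile genes with a promoter in the table (23.1%), for 439 of 27025 genes overall (1.62%) and for 0 of 12 pericyte markers. It was also present for 2 of 23 immediate early genes (8.70%) and 1 of 23 smooth muscle transcription factors (4.35%). The 6 contractile genes were Myl9, Cnn2, Myl6, Vcl, Ldb3 and Dmd, and Acta2 had no match to this strict pattern. No promoter was available for Tagln, Myh11 and Actg2, so these were not searched. Promoters of 4 of them follow, 5' to 3', with the box in capitals, to show how it sits in a contractile gene. They lie at chr2:156775214-156775463, plus strand (Myl9), chr10:128493010-128493259, minus strand (Myl6), chr10:79988350-79988599, plus strand (Cnn2) and chr14:34588682-34588931, minus strand (Ldb3).
Myl9: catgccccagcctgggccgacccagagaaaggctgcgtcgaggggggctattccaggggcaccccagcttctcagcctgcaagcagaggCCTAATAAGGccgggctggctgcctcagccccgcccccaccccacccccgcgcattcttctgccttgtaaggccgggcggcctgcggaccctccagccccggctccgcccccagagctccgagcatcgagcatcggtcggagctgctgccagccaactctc
Myl6: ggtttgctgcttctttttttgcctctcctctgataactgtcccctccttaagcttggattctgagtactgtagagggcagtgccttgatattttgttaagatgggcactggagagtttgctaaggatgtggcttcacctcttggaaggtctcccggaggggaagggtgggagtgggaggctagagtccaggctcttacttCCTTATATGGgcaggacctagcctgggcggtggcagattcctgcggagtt
Cnn2: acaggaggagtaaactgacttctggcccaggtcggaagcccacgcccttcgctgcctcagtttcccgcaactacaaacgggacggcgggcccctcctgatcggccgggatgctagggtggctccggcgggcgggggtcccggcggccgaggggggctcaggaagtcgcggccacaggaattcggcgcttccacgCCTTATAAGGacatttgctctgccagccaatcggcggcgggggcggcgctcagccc
Ldb3: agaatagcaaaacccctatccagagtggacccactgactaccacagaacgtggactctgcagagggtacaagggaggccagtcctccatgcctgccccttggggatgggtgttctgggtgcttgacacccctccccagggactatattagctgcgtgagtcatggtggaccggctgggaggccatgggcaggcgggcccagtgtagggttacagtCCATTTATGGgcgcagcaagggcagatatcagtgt
The box began 161 bases before the start in Myl9 (regulatory myosin light chain), 50 in Myl6 (essential light chain), 56 in Cnn2 (calponin 2) and 35 in Ldb3 (a Z-disc protein). A match is a sequence description only.

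Smooth muscle genes that the rule did not use were looked at beside the label. The pericytes and endothelial cells set beside members held at most 1 UMI of Acta2, Myh11 and Tagln together. Genes found together with these could thus be low there by choice, so the values describe the classes and do not test the label. Levels are a gene's summed UMIs scaled to the total UMIs of its class in that library, as counts per 1000000 (CPM). Pln (phospholamban, the brake of the calcium pump) stood at 714 CPM in members, 5.59 CPM in pericytes and 3.95 CPM in endothelial cells of the fluconazole library, and in the vehicle library at 659 CPM in members, 2.78 CPM in pericytes and 5.13 CPM in endothelial cells. Lmod1 (leiomodin, an actin nucleator of smooth muscle) stood at 363 CPM in members and 11.2 CPM in pericytes of the fluconazole library, and at 337 CPM in members and 8.34 CPM in pericytes of the vehicle library. Mustn1, a musculoskeletal gene, stood at 530 CPM in members and 20.5 CPM in pericytes of the fluconazole library, and at 510 CPM in members and 11.1 CPM in pericytes of the vehicle library. Pln, Lmod1 and Mustn1 stood far above pericytes in both libraries. Myl9, Map3k7cl and Sncg also stood above pericytes and endothelial cells in both libraries. Pcp4l1 did not set members apart from endothelial cells. It stood at 720 CPM in members and 585 CPM in endothelial cells of the fluconazole library, and at 585 CPM and 600 CPM in the vehicle library. Cnn1 was found in only 11.6% of fluconazole and 18.5% of vehicle members. The rule's own genes were by construction high, with a median of 70 UMIs (5 to 366) in fluconazole and 61 UMIs (5 to 292) in vehicle members, and all 3 were found in 138 barcodes in fluconazole and 162 in vehicle. Of the genes held low by the rule, Kcnj8 stood at 9.74 CPM in fluconazole and 14.2 CPM in vehicle members, and Abcc9 at 7.31 CPM in fluconazole and 7.09 CPM in vehicle.

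**Figure D1:**
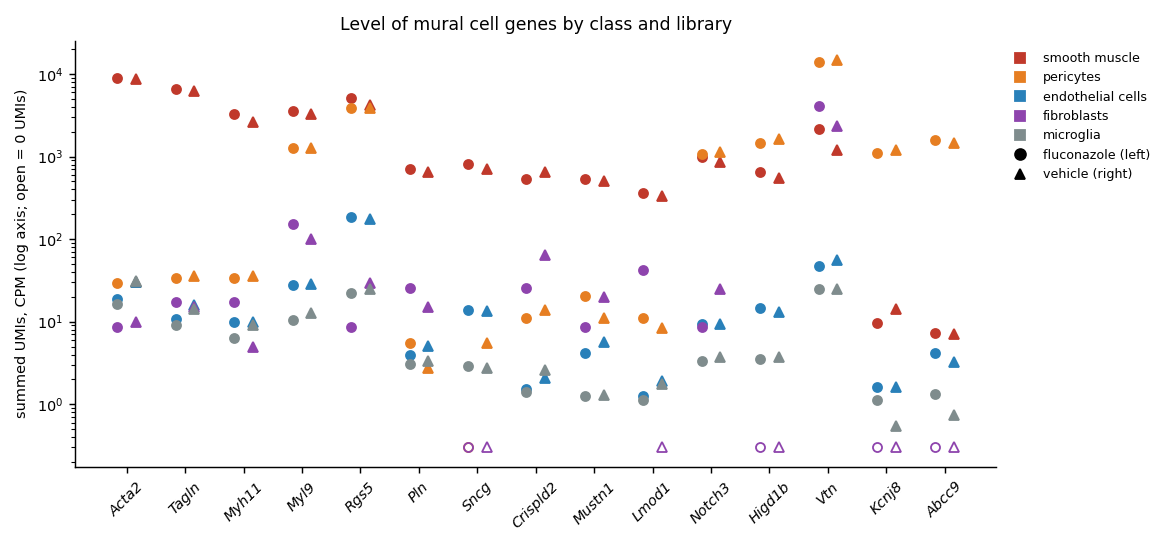
Summed UMIs as CPM (log axis) for 15 mural cell genes in smooth muscle barcodes and in 4 other classes, with the fluconazole library as circles on the left of each gene and the vehicle library as triangles on the right; open symbols had 0 UMIs. In both libraries the contractile genes stood highest in smooth muscle barcodes, Rgs5 and Notch3 stood close in smooth muscle and pericytes, and Vtn, Kcnj8 and Abcc9 stood highest in pericytes.

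Near the limits of the rule the barcodes were less clear. Members with 5 to 9 contractile UMIs, 14 in the fluconazole and 23 in the vehicle library, had 788 CPM (fluconazole) and 307 CPM (vehicle) of Myl9, with Pln at 0 CPM in fluconazole and 32.3 CPM in vehicle. In members with 10 or more, Myl9 stood at 3850 CPM in fluconazole and 3779 CPM in vehicle, and Pln at 793 CPM in fluconazole and 767 CPM in vehicle. Just outside, barcodes with 3 or 4 contractile UMIs (24 in fluconazole and 82 in vehicle) had Myl9 at 49.1 CPM in fluconazole and 80.8 CPM in vehicle. Barcodes that failed only through 2 or 3 UMIs of the other 4 genes (23 in fluconazole and 30 in vehicle) had Myl9 at 2220 CPM in fluconazole and 1621 CPM in vehicle.

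Some members carried RNA of other cell types. Counted as mixed were barcodes with at least 10 UMIs of a single marker list, a setting chosen after the data were seen. The lists were fibroblast, microglia, astrocyte, oligodendrocyte, glutamatergic, GABAergic and blood markers, so endothelial and pericyte markers did not enter. At least 10 UMIs of endothelial markers outside the rule lay in 14 fluconazole and 15 vehicle members. For pericyte markers outside the rule this held for 133 fluconazole and 147 vehicle members. These markers include Rgs5, which stood higher in smooth muscle than in pericytes in both libraries. By the limit used, 13 of 155 fluconazole members (8.39%, holding 19.3% of the UMIs) and 28 of 184 vehicle members (15.2%, holding 33.3%) were mixed. Their median depth was 12795 UMIs in fluconazole and 9146 UMIs in vehicle, against 4289 UMIs (fluconazole) and 3802 UMIs (vehicle) in the other members. The 12 glutamatergic markers, all detected in both libraries, summed to 574 CPM in fluconazole and 1662 CPM in vehicle members, and to 202 CPM in fluconazole and 271 CPM in vehicle with mixed barcodes left out. The 11 oligodendrocyte markers summed to 1998 CPM in fluconazole and 2685 CPM in vehicle, and to 116 CPM in fluconazole and 188 CPM in vehicle without them. The 14 fibroblast markers summed to 432 CPM in fluconazole and 771 CPM in vehicle with 7 in fluconazole and 3 in vehicle at 0 (Dcn, Lum and Pdgfra at 0 in the fluconazole library), and to 314 CPM in fluconazole and 312 CPM in vehicle without them. The 12 blood markers summed to 119 CPM in fluconazole and 3142 CPM in vehicle, mostly haemoglobin in 1 vehicle barcode with 2510 UMIs of them, and to 122 CPM in fluconazole and 179 CPM in vehicle without. The 14 microglial markers, all detected, summed to 396 CPM in fluconazole and 554 CPM in vehicle, and to 334 CPM in fluconazole and 482 CPM in vehicle without. The 12 astrocyte markers summed to 2383 CPM in fluconazole and 1864 CPM in vehicle, and still to 2273 CPM in fluconazole and 1833 CPM in vehicle without mixed barcodes, whose limit left out 3 of these genes. The 11 GABAergic markers, with 3 in fluconazole and 2 in vehicle at 0, summed to 93.8 CPM in fluconazole and 79.2 CPM in vehicle, and to 33.2 CPM in fluconazole and 46.0 CPM in vehicle without. The results below are therefore given for all members and for the 142 fluconazole and 156 vehicle barcodes that were not mixed, called unmixed members. The part of these markers in the results that remain without mixed barcodes was not tested.

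Both libraries were of like size, with 78380009 UMIs in the fluconazole and 76891692 in the vehicle library, and 45 barcode sequences occurred in both, none of them members. Members held 821200 UMIs in fluconazole and 846465 UMIs in vehicle, with a median of 4595 UMIs in fluconazole and 4048 UMIs in vehicle. Their median number of genes was 2224 in fluconazole and 2025 in vehicle, and their median mitochondrial share 3.51% in fluconazole and 3.65% in vehicle. Shank3 had 2 UMIs in fluconazole and 16 in vehicle members (0 of them in unmixed vehicle members). In endothelial cells Shank3 had 1179 UMIs in fluconazole and 1113 in vehicle, 106 CPM in each library. These counts check nothing about the genotype while the deleted part of the gene is not given. The doublet caller Scrublet marked 8 members in fluconazole and 16 in vehicle, of which 7 in fluconazole and 14 in vehicle were mixed.

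Smooth muscle barcodes made up 1.40% (1.19 to 1.64) of the fluconazole and 1.37% (1.18 to 1.58) of the vehicle library, exact Clopper-Pearson intervals. The ratio of the shares was 1.02 (0.82 to 1.28), and 1.11 (0.88 to 1.40) for unmixed members. These intervals compare the 2 libraries, not the treatments.

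The next values set smooth muscle against pericytes, chosen by Kcnj8 and Abcc9 (171 barcodes in the fluconazole and 152 in the vehicle library). The rule selected members by contractile genes, and pericytes held at most 1 UMI of Acta2, Myh11 and Tagln together. These ratios therefore describe the classes and test nothing. Among 9590 genes with at least 20 UMIs, with mixed barcodes left out of both classes, 601 (6.27%) were at least 2-fold higher in smooth muscle in both libraries and 721 (7.52%) at least 2-fold lower. With all barcodes the numbers were 673 of 10929 (6.16%) and 637 (5.83%). The ratios that follow are for unmixed barcodes, as log2 of smooth muscle over pericytes.

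Of the 26 contractile genes measured beyond the rule's own, 21 stood at least 2-fold higher in smooth muscle in both libraries and 0 lower, with medians of 2.43 and 2.52 in the fluconazole and vehicle libraries, against -0.17 in fluconazole and -0.18 in vehicle over all genes. Lmod1 had 5.25 (4.01 to 6.88) in fluconazole and 6.10 (4.23 to 9.15) in vehicle. Csrp1, an actin-bundling LIM protein, had 3.32 (2.73 to 3.99) in fluconazole and 4.53 (3.53 to 5.75) in vehicle. The tropomyosins Tpm1 and Tpm2, which line the actin filament, had 3.19 and 3.86 in the fluconazole library and 3.37 and 3.79 in the vehicle library. Of the genes whose promoters are printed above, Myl9 had 1.59 (1.46 to 1.72) in fluconazole and 1.58 (1.43 to 1.73) in vehicle, Myl6 2.27 (2.13 to 2.41) in fluconazole and 2.25 (2.10 to 2.41) in vehicle, Ldb3 2.46 (0.74 to 4.83) in fluconazole and 2.95 (0.97 to 6.07) in vehicle, and Cnn2 1.63 (1.05 to 2.27) in fluconazole and 0.61 (0.03 to 1.22) in vehicle. Vcl (vinculin) had 0.17 in fluconazole and 0.24 in vehicle, and Dmd (dystrophin) 0.97 in fluconazole and 1.05 in vehicle. Cald1 (caldesmon) was near equal in both mural classes, at 3351 CPM in smooth muscle and 3783 CPM in pericytes of the fluconazole library, and 3318 CPM in smooth muscle and 3775 CPM in pericytes of the vehicle library. Pdlim3, an actinin-binding protein, had 191 UMIs in fluconazole and 170 in vehicle smooth muscle and 0 in pericytes, at least 43.7-fold (fluconazole) and 31.4-fold (vehicle) higher against a floor of 3 counts per library and class. Sncg (gamma-synuclein) had 0 UMIs in fluconazole pericytes (at least 142-fold higher in smooth muscle), and 7.20 (5.34 to 10.25) in the vehicle library.

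Calcium handling set smooth muscle apart in both directions. Pln had 785 CPM in smooth muscle and 4.39 CPM in pericytes of the fluconazole library, and 862 CPM in smooth muscle and 3.20 CPM in pericytes of the vehicle library. Its partner Atp2a2, the calcium pump of the sarcoplasmic reticulum, had 1.79 in fluconazole and 2.15 in vehicle, the sodium-calcium exchanger Slc8a1 3.84 in fluconazole and 3.42 in vehicle, and the plasma membrane pump Atp2b4 2.41 in fluconazole and 2.90 in vehicle. Kcnab1, a potassium channel subunit, had 5.09 (4.24 to 6.10) in fluconazole and 5.78 (4.55 to 7.41) in vehicle. The large-conductance channel Kcnma1 had 2.94 in fluconazole and 3.05 in vehicle, the ryanodine receptor Ryr2 1.96 in fluconazole and 1.86 in vehicle, and the calcium channel subunit Cacnb2 1.91 in fluconazole and 1.80 in vehicle. In the other direction stood Itpr2, an IP3 receptor (-2.68 in fluconazole and -2.19 in vehicle). Of the 33 channel genes measured, 11 were at least 2-fold higher in both libraries and 2 lower.

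Receptors and their signalling split between the mural classes. Of 19 vasoactive receptors, 4 were at least 2-fold higher in both libraries and 6 lower. The 4 higher were Htr1b (serotonin receptor 1B), which had 29 UMIs in fluconazole and 36 in vehicle members and 0 in pericytes, Or51e1 (an olfactory receptor, 4.92 in the fluconazole and 5.78 in the vehicle library), Ramp1 (a subunit of the receptor for the vasodilator CGRP, 3.85 in fluconazole and 4.70 in vehicle), and Ptgir (the prostacyclin receptor, 3.27 in fluconazole and 1.32 in vehicle on few UMIs). The 6 lower were P2ry14 (a UDP-sugar receptor), Tbxa2r (thromboxane), S1pr3 and Lpar1 (lysophospholipids), Adora2a (adenosine) and Ptgfr (prostaglandin F). P2ry14 had -1.88 (-2.19 to -1.58) in the fluconazole and -2.38 (-2.77 to -2.01) in the vehicle library, and Tbxa2r -1.78 (-2.22 to -1.37) in fluconazole and -1.79 (-2.27 to -1.32) in vehicle. The endothelin receptor Ednra was near equal, at 0.16 in fluconazole and -0.17 in vehicle.

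Downstream of the receptors, Ppp1r12b, a myosin-targeting subunit of myosin phosphatase, had 2.14 (1.72 to 2.59) in the fluconazole and 2.34 (1.81 to 2.90) in the vehicle library, and its relative Ppp1r12a had 1.28 in fluconazole and 1.68 in vehicle. Of 22 genes of cyclic nucleotide signalling, 5 were higher and 4 lower. Pde3a, a phosphodiesterase of cAMP that cGMP inhibits, stood at 1805 CPM in smooth muscle and 261 CPM in pericytes of the fluconazole library, and at 1889 CPM in smooth muscle and 240 CPM in pericytes of the vehicle library. Irag1, a target of cGMP-dependent kinase at the calcium store, had 1.47 in fluconazole and 1.76 in vehicle. The phosphodiesterases Pde7b (-2.46 in fluconazole and -3.15 in vehicle) and Pde8a (-2.54 in fluconazole and -3.44 in vehicle) were lower in smooth muscle.

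Of 27 transcription factors, 5 were higher and 1 lower. Myocd (myocardin) had 168 UMIs in fluconazole and 114 in vehicle smooth muscle and 0 in pericytes of either library, at least 38.5-fold (fluconazole) and 21.0-fold (vehicle) higher. Klf2, a flow-sensitive factor, had 2.47 (2.12 to 2.84) in the fluconazole and 2.03 (1.67 to 2.41) in the vehicle library, and Zfhx3 had 1.14 in fluconazole and 1.67 in vehicle. Foxf2, a factor known for brain pericytes, was the 1 lower gene, at -1.36 (-2.20 to -0.55) in fluconazole and -1.25 (-2.19 to -0.33) in vehicle. In the Notch list, Nrip2 (4.76 in fluconazole and 4.28 in vehicle) and the ligand Jag1 (1.56 in fluconazole and 1.30 in vehicle) were the 2 genes of 17 at least 2-fold higher, and 0 were lower. Immediate early genes, which answer stimulation and tissue dissociation within minutes, stood above pericytes as a group: 16 of 28 were at least 2-fold higher in both libraries and 0 lower, with medians of 1.15 (fluconazole) and 1.17 (vehicle). The nuclear receptor Nr4a2 had 5.06 (3.68 to 6.95) in fluconazole and 6.61 (4.12 to 11.93) in vehicle, Nr4a1 2.92 in fluconazole and 2.58 in vehicle, and Egr1 1.23 in fluconazole and 1.19 in vehicle. The part of dissociation in this difference was not tested.

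The matrix list of 34 genes divided, with 7 higher and 8 lower. Higher in smooth muscle were the elastic fibre genes Ltbp1 (4.65 in the fluconazole and 5.03 in the vehicle library), Eln (elastin, 2.46 in fluconazole and 3.43 in vehicle) and Lox (which crosslinks elastin, 0 UMIs in fluconazole pericytes and 3.95 in the vehicle library), with Tinagl1 (2.31 in fluconazole and 3.21 in vehicle) and the laminin chain Lama5. Lower were the laminin chains Lama2 (-1.95 in fluconazole and -1.82 in vehicle), Lama4 (-1.89 in fluconazole and -2.07 in vehicle), Lamb1 (-2.42 in fluconazole and -4.18 in vehicle) and Lamc1 (-1.32 in fluconazole and -1.65 in vehicle), and the basement membrane linker Nid1 (-1.69 in fluconazole and -1.51 in vehicle). Of 32 genes of growth factor signalling, 12 were higher and 3 lower, among them the ligand Pdgfa (2.40 in fluconazole and 2.12 in vehicle) on the high side and its relative's receptor Pdgfrb (-1.61 in fluconazole and -1.55 in vehicle) on the low side. The caveolar genes Cavin1 (3.32 in fluconazole and 3.87 in vehicle), Cavin3 (3.70 in fluconazole and 2.83 in vehicle) and Cav1 (4.83, and 0 UMIs in vehicle pericytes) were among 5 of 21 higher, with 2 lower. Of 22 sterol uptake genes, 0 were higher and 7 lower, such as the HDL receptor Scarb1 (-3.20 in fluconazole and -1.85 in vehicle).

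**Figure D2:**
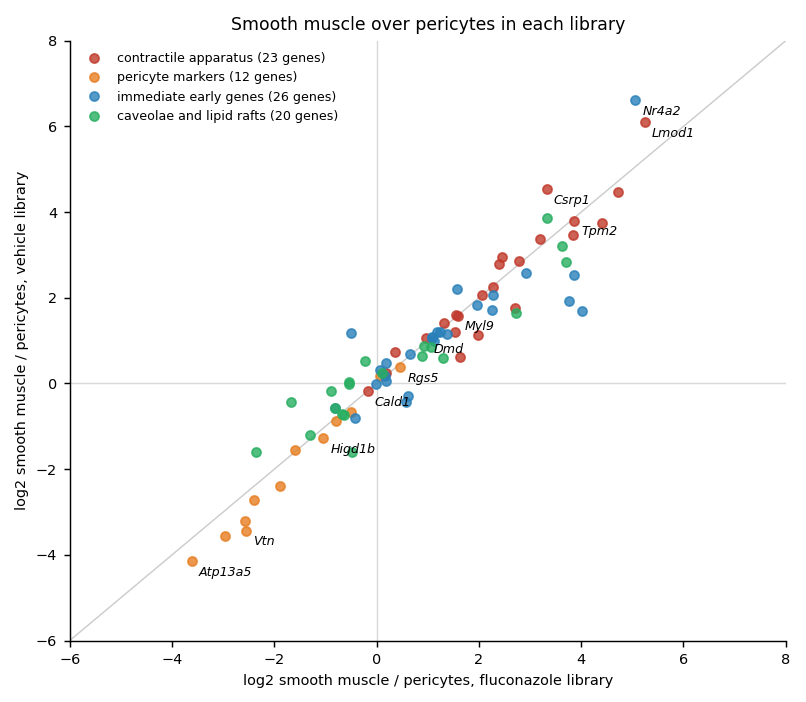
Each point is a gene of 4 lists, placed by its log2 ratio of smooth muscle over pericytes in the fluconazole (x axis) and the vehicle library (y axis), with mixed barcodes left out and genes with 0 UMIs in a class not drawn. Contractile genes spread to the upper right, such as Lmod1 at 5.25 in fluconazole and 6.10 in vehicle. Most pericyte markers spread to the lower left, such as Atp13a5 at -3.61 in fluconazole and -4.16 in vehicle. Rgs5, of the same list, stood at 0.46 in fluconazole and 0.38 in vehicle. Both libraries gave like values for most genes.

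Among the genes farthest apart beyond these lists, Crispld2, a secreted protein, had 5.71 (4.48 to 7.34) in fluconazole and 5.74 (4.51 to 7.37) in vehicle. The netrin Ntn4 had 4.39 (3.70 to 5.18) in the fluconazole and 4.76 (3.87 to 5.83) in the vehicle library. Thsd4 (7.99 in fluconazole and 6.01 in vehicle) and Adamtsl1 (5.69 in fluconazole and 5.75 in vehicle), both secreted matrix proteins, and Map3k7cl (5.15 in fluconazole and 6.85 in vehicle) completed the 12 genes farthest above pericytes with those given already. On the low side, the growth factor Ptn (pleiotrophin) stood at 438 CPM in smooth muscle and 9365 CPM in pericytes of the fluconazole library, and at 359 CPM in smooth muscle and 9055 CPM in pericytes of the vehicle library. The metabotropic glutamate receptor Grm3 had -4.96 in fluconazole and -4.42 in vehicle, the transporter Slc22a8 -5.51 in fluconazole and -5.22 in vehicle, and Uchl1, a deubiquitinase, -6.17 in fluconazole and -5.77 in vehicle. Osteopontin (Spp1) had 2 UMIs in fluconazole and 0 in vehicle smooth muscle (-5.71, and at least 27.1-fold lower). The remaining low genes were Ggt1, Pla1a, Nts, Atp13a5, Caln1, Dcdc2a and Tmem86a.

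Against endothelial cells (2530 barcodes in the fluconazole and 2655 in the vehicle library), 1625 of 14544 genes (11.2%) were at least 2-fold higher and 2444 (16.8%) at least 2-fold lower in both libraries without mixed barcodes. With all barcodes these were 1863 (11.7%) and 2077 (13.0%) of 15947. The contractile list had 25 of 27 genes higher and 0 lower, and the pericyte markers 12 of 12 higher. Channels had 27 of 36 higher, with Ano1, a calcium-activated chloride channel, at 7.46 (6.91 to 8.07) in the fluconazole and 7.59 (6.90 to 8.37) in the vehicle library. Interferon response genes had 0 of 34 higher and 27 lower, with medians of -2.58 (fluconazole) and -1.95 (vehicle). The 15 endothelial markers outside the rule were lower in all 15 cases, such as the tight junction gene Cldn5, at -6.69 in fluconazole and -6.40 in vehicle.

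The comparison of fluconazole with vehicle depended on the mixed barcodes. Over all members, 197 of 9431 genes (2.09%) stood at least 2-fold higher in fluconazole and 587 (6.22%) at least 2-fold lower, and 51.4% were higher and 48.6% lower at any size. Without mixed barcodes, 172 of 7740 genes (2.22%) stood at least 2-fold higher and 202 (2.61%) at least 2-fold lower, and 50.8% were higher and 49.2% lower at any size. Lower genes outnumbered higher ones by 587 to 197 over all members and by 202 to 172 in unmixed members.

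The 10 genes farthest below vehicle over all members were Rtl4, Prr16, Cdh12, Nwd2, Car10, Ralyl, Kcnip4, Cacng3, Kcnh7 and Tmem267. Between 85.7% and 97.5% of their vehicle UMIs lay in mixed barcodes. Kcnip4, a potassium channel partner of neurons, had 341 UMIs in fluconazole and 2036 in vehicle members, a log2 ratio of -2.53 (-2.70 to -2.37), and in unmixed members 56 UMIs in fluconazole and 80 in vehicle, -0.74 (-1.26 to -0.23). Rtl4 had 0 UMIs in fluconazole and 65 in vehicle members, and in unmixed members 0 in fluconazole and 5 in vehicle. Car10 stood at -3.62 over all members and at 0.28 (-1.26 to 1.91) in unmixed members. Tmem267 stood at -3.03 over all members and at -0.82 in unmixed members, where its interval included 0. Without mixed barcodes Tmem267 was also below vehicle in endothelial cells, at -1.13. In pericytes it stood at -2.31, on 5 UMIs in fluconazole and 17 in vehicle. Its intervals in these other classes lay wholly below 0. Of the genes farthest above vehicle, Kazn stood at 1.31 (0.99 to 1.64) over all and 0.44 (0.03 to 0.87) in unmixed members, and Sdk2 at 1.70 (0.97 to 2.48) over all and 0.59 (-0.45 to 1.70) in unmixed members. The other 8 were Plat, Vtn, Tns3, Rerg, Gps1, Phpt1, Nr4a3 and Gstm5, all higher in both sets, with log2 ratios of 0.77 to 1.62 in unmixed members.

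**Figure D3:**
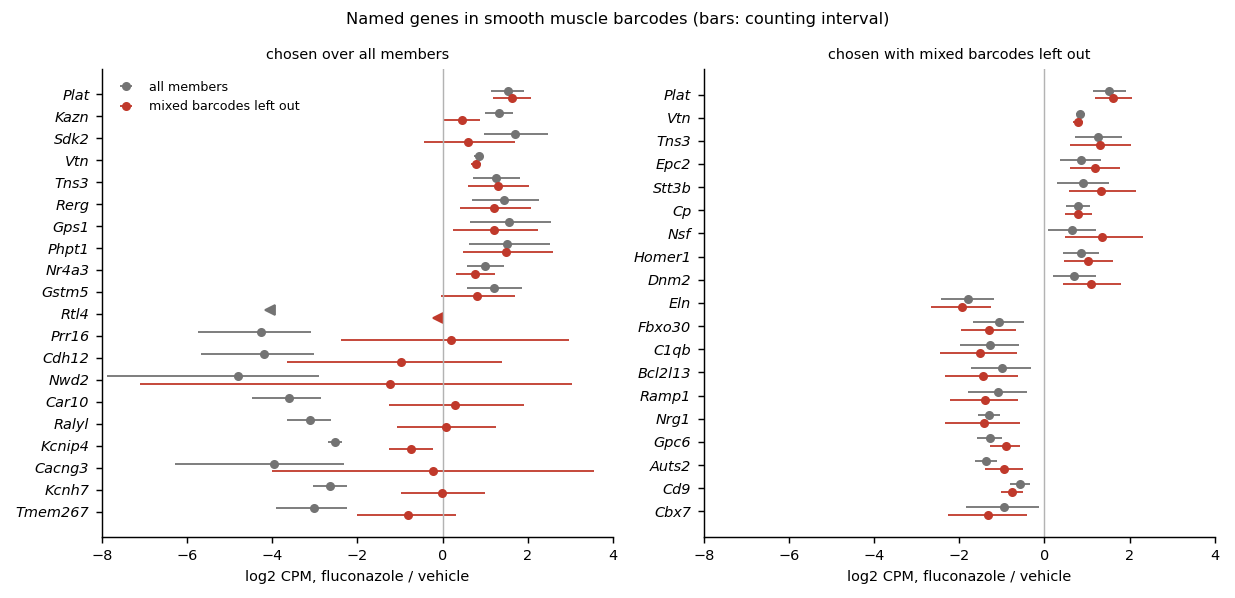
Log2 ratio of CPM, fluconazole over vehicle (x axis), for the genes farthest apart among all members (left) and among unmixed members (right), with 95% counting intervals as bars and arrowheads for bounds of a gene with 0 UMIs. Car10 stood at -3.62 over all members and 0.28 in unmixed members, and Kcnip4 at -2.53 and -0.74, whereas with all and with unmixed members Plat stood at 1.53 then 1.62, Vtn at 0.85 then 0.79 and Eln at -1.78 then -1.93.

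The genes that stood apart in unmixed members were led by Plat, tissue plasminogen activator, which vascular cells secrete to dissolve fibrin. It had 209 UMIs (316 CPM) in fluconazole and 58 UMIs (103 CPM) in vehicle barcodes, a log2 ratio of 1.62 (1.19 to 2.06). A Plat UMI was found in 53.5% of 142 fluconazole and 26.9% of 156 vehicle barcodes, and after thinning each barcode to 1500 UMIs in 31.8% in fluconazole and 13.3% in vehicle. In microglia, which should lack it, the share was 2.38% in fluconazole and 1.83% in vehicle at median depths of 6018 UMIs in fluconazole and 4607 UMIs in vehicle. Without mixed barcodes the same ratio was also above 0 in pericytes, 0.48 (0.11 to 0.86), and was 0.07 (-0.01 to 0.15) in endothelial cells. Over all pericyte barcodes a Plat UMI was found in 65.5% in fluconazole and 42.8% in vehicle. Whether the classes differ could not be tested with 1 library per treatment.

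Vtn (vitronectin, an adhesive protein of matrix and plasma) stood at 2598 CPM in fluconazole and 1507 CPM in vehicle barcodes, a log2 ratio of 0.79 (0.67 to 0.91). A typical barcode had 17.1 UMIs of it per 10000 in fluconazole and 8.41 in vehicle, the medians, and both groups ran from 0 to above 100. In pericytes, where it is a marker, it stood at 15330 CPM (fluconazole) and 16260 CPM (vehicle), -0.08 (-0.14 to -0.03). In the 26 fluconazole and 43 vehicle fibroblast barcodes it stood at 4155 CPM in fluconazole and 2326 CPM in vehicle. Cp, the ferroxidase ceruloplasmin, had 397 CPM in fluconazole and 228 CPM in vehicle, 0.80 (0.49 to 1.11). Cp was also higher in pericytes (0.29, 0.01 to 0.57) and endothelial cells (0.41, 0.32 to 0.51).

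The other genes above vehicle had fewer UMIs. Tns3 (tensin 3, an adaptor of focal adhesions) had 69 UMIs in fluconazole and 24 in vehicle barcodes, 1.29 (0.60 to 2.03). Stt3b, an oligosaccharyltransferase, had 1.33 (0.58 to 2.14), Nsf, an ATPase of vesicle fusion, 1.35 (0.48 to 2.30), and Dnm2, the membrane-cutting dynamin 2, 1.10 (0.44 to 1.80). Homer1, a scaffold of calcium signalling, had 1.02 (0.45 to 1.62) and Epc2 1.18 (0.60 to 1.78). Rerg, a small GTPase chosen over all members, had 1.21 (0.41 to 2.08), and in pericytes 2.21 (1.13 to 3.50).

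Below vehicle stood Eln, elastin, the core of the elastic layers of arteries. It had 24 UMIs (36.2 CPM) in fluconazole and 78 UMIs (138 CPM) in vehicle barcodes, a log2 ratio of -1.93 (-2.66 to -1.25). An Eln UMI was found in 17 of 142 fluconazole and 35 of 156 vehicle barcodes, after thinning in 7.75% in fluconazole and 12.6% in vehicle. In microglia the share was 1.57% in fluconazole and 1.29% in vehicle. In endothelial cells Eln stood at 75.1 CPM in fluconazole and 61.8 CPM in vehicle, 0.28 (0.11 to 0.46). Cd9, a tetraspanin of the cell surface, had 303 CPM in fluconazole and 513 CPM in vehicle barcodes, -0.76 (-1.03 to -0.49), and Ramp1 31.7 CPM in fluconazole and 83.2 CPM in vehicle, -1.39 (-2.21 to -0.62). Without mixed barcodes Cd9 was also below vehicle in endothelial cells, -0.25 (-0.38 to -0.11), and stood at -0.98 (-2.09 to 0.09) in pericytes. Microglia held Cd9 at 849 CPM in fluconazole and 701 CPM in vehicle. The complement gene C1qb, a microglial marker, was also below vehicle, with 16 UMIs in fluconazole and 39 in vehicle barcodes, -1.52 (-2.45 to -0.64). C1qb stood at -0.36 (-0.56 to -0.17) in endothelial cells and -0.65 (-1.48 to 0.17) in pericytes without mixed barcodes.

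Gpc6, a cell surface proteoglycan, had -0.91 (-1.27 to -0.57), and Auts2 -0.95 (-1.40 to -0.51), with -1.01 (-1.51 to -0.53) in pericytes. Nrg1 (neuregulin 1, the identifier ENSMUSG00000062991, since the symbol occurs more than once) had -1.43 (-2.34 to -0.57). Fbxo30 had -1.30 (-1.95 to -0.67), Bcl2l13 -1.45 (-2.34 to -0.62) and Cbx7 -1.32 (-2.27 to -0.42).

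The contractile apparatus did not stand apart as a group. Of 30 genes 24 were higher in fluconazole over all members, median log2 ratio 0.13, and of 29 genes 12 were higher in unmixed members, median -0.04, beside medians over all genes of 0.02 (all members) and 0.01 (unmixed members). Acta2, smooth muscle actin, stood at 8869 CPM in fluconazole and 8740 CPM in vehicle members, and in unmixed members at 9978 CPM in fluconazole and 11203 CPM in vehicle, -0.17 (-0.22 to -0.12). Tagln had -0.10 (-0.16 to -0.04) and Myl6 -0.18 (-0.25 to -0.11) in unmixed members, whereas Myh11, the smooth muscle myosin heavy chain, had 0.10 (0.01 to 0.19) and Dmd 0.26 (0.15 to 0.37). Cnn1 (calponin 1, a brake of the actin-myosin cycle) stood lower, at 72.5 CPM in fluconazole and 127 CPM in vehicle unmixed members, -0.82 (-1.37 to -0.27). The rule counts Acta2, Myh11 and Tagln, so their levels were bounded from below in both libraries alike.

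Channels, receptors and their signalling also lay near the background of all genes. The 32 channel genes in unmixed members had a median of -0.06 with 14 higher and the 20 cyclic nucleotide genes -0.06 with 9 higher. Ano1 stood at 619 CPM in fluconazole and 452 CPM in vehicle barcodes, 0.46 (0.23 to 0.69), the L-type calcium channel Cacna1c at 1268 CPM in fluconazole and 1094 CPM in vehicle, 0.21 (0.06 to 0.36), and the IP3 receptor Itpr1 at 0.32 (0.07 to 0.57). Atp2a2 had -0.19 (-0.36 to -0.02) and Pln -0.14 (-0.32 to 0.05). Kcnq5, a potassium channel also of neurons, stood at -2.23 (-2.55 to -1.91) over all members and -0.19 (-0.92 to 0.55) in unmixed members. Prkg1, the cGMP-dependent kinase, had 0.14 (0.04 to 0.23), the phosphodiesterase Pde10a 0.83 (0.23 to 1.46) and the G protein Gna11 0.45 (0.08 to 0.83). Of 14 receptors 8 were higher, median 0.06, and Ramp1 was among the lower.

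The matrix list had 10 of 28 genes higher and a median of -0.22 in unmixed members (13 of 28 and -0.05 over all members). Beside Eln, Lox stood at -1.23 (-2.27 to -0.26), the basement membrane proteoglycan Hspg2 at -1.55 (-2.77 to -0.44), and Mgp, matrix Gla protein that blocks calcification, at 1440 CPM in fluconazole and 1781 CPM in vehicle, -0.31 (-0.44 to -0.18). Sparc had -0.22 (-0.37 to -0.08), and Col1a2, also a fibroblast marker, 0.69 (0.20 to 1.19). Growth factor signalling had 17 of 29 genes higher, median 0.12, with the endothelial stabiliser Angpt1 at 355 CPM in fluconazole and 221 CPM in vehicle, 0.68 (0.36 to 1.01), the receptor Bmpr1a at 0.52 (0.17 to 0.87), and the inhibitor of differentiation Id2 at -1.04 (-1.71 to -0.39). Of 16 Notch genes 11 were higher, median 0.19. Notch3, the receptor of mural cells, had -0.03 (-0.19 to 0.12) and the target Hes1 -0.53 (-0.82 to -0.25). Of 25 transcription factors 13 were higher, median 0.01, with Klf4, a repressor of the contractile state, at 0.35 (0.04 to 0.66) and Myocd at 0.33 (-0.02 to 0.69).

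The interferon response list had the lowest median of the 23 lists compared in unmixed members, -0.44, with 3 of 17 genes higher (4 of 17 and -0.28 over all members). Ifitm3, an antiviral membrane protein, stood at 569 CPM in fluconazole and 862 CPM in vehicle, -0.60 (-0.80 to -0.40), Bst2 at -1.07 (-1.96 to -0.22) and Lgals3bp at -1.65 (-3.29 to -0.22). Microglial markers, which include genes of immune cells, summed to 334 CPM in fluconazole and 482 CPM in vehicle unmixed members, with a median ratio of -0.47 over 11 genes, and their part was not tested. Pericyte markers had 10 of 12 higher, median 0.16, with Art3 at 0.60 (0.18 to 1.04), Atp13a5 at 0.48 (0.12 to 0.84) and Rgs5 at 0.10 (0.03 to 0.17). Outside the rule's own genes the pericyte markers summed to 12637 CPM in fluconazole and 10900 CPM in vehicle unmixed members. Of this sum Rgs5 held 6005 CPM in fluconazole and 5611 CPM in vehicle. Rgs5 was not particular to pericytes, with log2 ratios of smooth muscle over pericytes of 0.46 in fluconazole and 0.38 in vehicle.

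Fluconazole inhibits the fungal sterol demethylase, whose mammalian homologue Cyp51 belongs to cholesterol synthesis, and the genes of that route are therefore given although they were sparse. Of 23 genes 16 passed 20 UMIs over all members, with 11 higher and a median of 0.27, and 11 in unmixed members, with 5 higher and a median of -0.06. Cyp51 had 31 UMIs in fluconazole and 20 in vehicle members, 0.68 (-0.18 to 1.56), and in unmixed members 13 in fluconazole and 12 in vehicle, -0.11 (-1.36 to 1.15). Fdps, farnesyl diphosphate synthase, stood at 1.22 (0.31 to 2.21) over all and 0.26 (-1.02 to 1.59) in unmixed members. Sterol uptake had 6 of 15 higher, median -0.11, in unmixed members, and caveolae 8 of 19, median -0.04. In the IGF1 receptor and insulin list 14 of 31 were higher, median -0.02. Igf1r itself had -0.20 (-0.51 to 0.12), and 2 binding proteins stood lower, Igfbp4 at -1.47 (-2.48 to -0.53) and Igfbp5 at -2.23 (-4.00 to -0.77), on 33 and 20 vehicle UMIs.

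Among the general programmes, immediate early genes had 12 of 27 higher, median -0.10, in unmixed members (19 of 28 and 0.17 over all members), with Nr4a3 at 0.77 (0.32 to 1.23), Fos at 0.04 (-0.03 to 0.11) and Egr1 at -0.23 (-0.34 to -0.12). Genes induced by glucocorticoids had 9 of 23 higher, median -0.21, with the cell cycle inhibitor Cdkn1c at 0.51 (0.16 to 0.87) and Ddit4 at -0.78 (-1.42 to -0.15). Circadian genes had 8 of 14 higher, median 0.05, with Rora at 0.41 (0.21 to 0.62) and Nr1d1 at -0.75 (-1.45 to -0.07). Heat shock genes had 12 of 23 higher, median 0.04, and the genes of the synthetic state of smooth muscle 9 of 17, median 0.02. Cytosolic ribosomal proteins had 18 of 81 higher, median -0.13, the mitochondrially encoded genes 9 of 13, median 0.09, and the nuclear-retained RNAs 6 of 7, median 0.28. The last 3 lists can move with the makeup of a library (cytoplasm against nucleus). Whether they did so here, and their part in the other ratios, was not tested. In all, 11 of 23 lists had a median above 0 in unmixed members and 18 of 23 over all members.

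**Figure D4:**
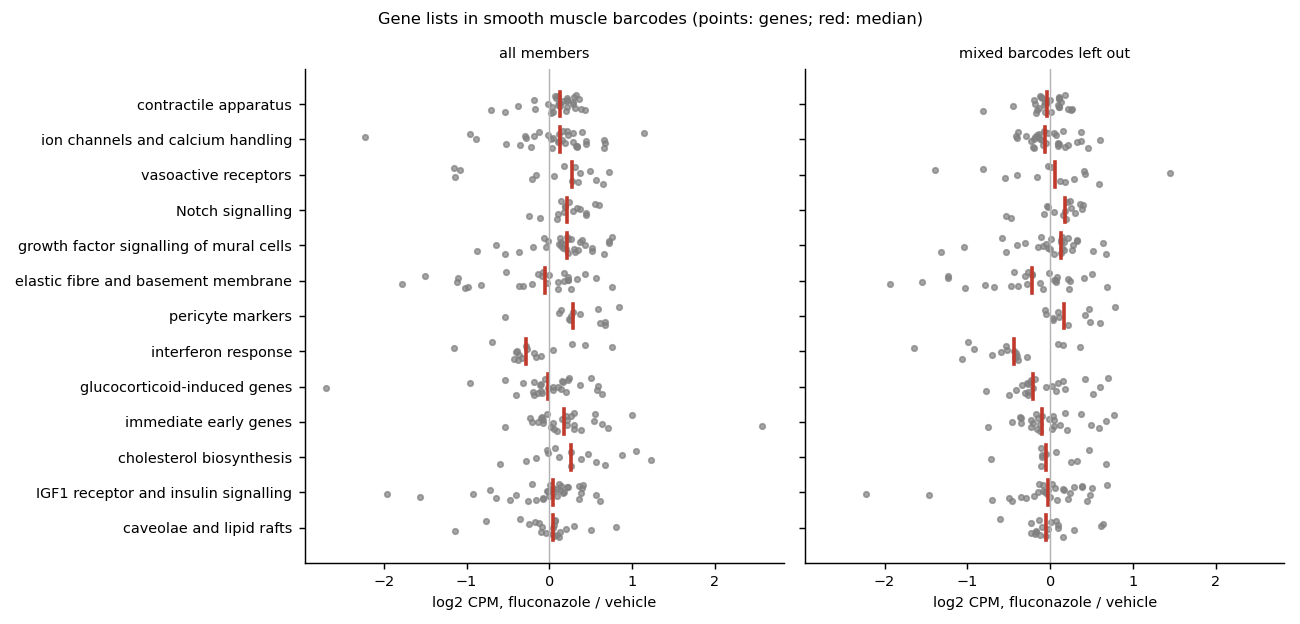
Log2 ratio of CPM, fluconazole over vehicle (x axis), of the genes with at least 20 UMIs in 13 lists, for all members (left) and unmixed members (right), with each gene a grey point and the median a red bar. Medians above 0 over all members, such as 0.13 for the contractile apparatus and 0.27 for cholesterol biosynthesis, lay at -0.04 and -0.06 without mixed barcodes, and the interferon median stayed below 0 (-0.28 and -0.44).

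Vtn, high in pericytes, varied among smooth muscle barcodes, and other genes varied with it. Spearman's correlation with Vtn was computed over the unmixed members, 142 in the fluconazole and 156 in the vehicle library, for the 561 other genes with at least 150 UMIs in each library. The barcodes of a library share their depth denominator and library, so these correlations describe the barcodes and carry no test. Varying with Vtn were Ptn (0.70 in fluconazole and 0.52 in vehicle), the chemokine scavenger Ackr3 (0.64 in fluconazole and 0.52 in vehicle), Pdgfrb (0.54 in fluconazole and 0.46 in vehicle), Higd1b (0.50 in fluconazole and 0.51 in vehicle) and Rgs5 (0.50 in fluconazole and 0.50 in vehicle). Varying against it were the actin-bundling Csrp1 (-0.63 in fluconazole and -0.58 in vehicle), Kcnab1 (-0.59 in fluconazole and -0.65 in vehicle), the adaptor Sorbs2 (-0.58 in fluconazole and -0.57 in vehicle), the actin-severing Dstn (-0.58 in fluconazole and -0.48 in vehicle), Crispld2 (-0.54 in fluconazole and -0.54 in vehicle), Myh11 (-0.52 in fluconazole and -0.49 in vehicle), Pln (-0.50 in fluconazole and -0.49 in vehicle) and Tagln (-0.49 in fluconazole and -0.45 in vehicle). Of these, Myh11 and Tagln were also used by the rule that chose the members. Myl9, which the rule did not use, had -0.34 in fluconazole and -0.31 in vehicle. Both libraries thus held barcodes that ran from high Vtn, Ptn and Rgs5 to high Crispld2, Kcnab1 and contractile genes.

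In unmixed members, 9 of the 12 genes that varied most with Vtn in both libraries were higher in fluconazole, with a median log2 ratio of 0.10. Of the 12 that varied most against it, 10 were lower in unmixed members, with a median of -0.13. Over the 561 genes, 49% were higher and 51% lower. The 3 exceptions at the first end were Ackr3 (-0.34), Itm2b (-0.09) and Pdgfrb (-0.05), and the 2 at the other were Palld (0.13) and Myh11 (0.10). Of the 10 lower genes, only Errfi1, Tagln and Crispld2 had intervals wholly below 0. Over all members, Tagln (0.08), Sparcl1 (0.18), Dstn (0.03), Pln (0.11) and Kcnab1 (0.15) stood above 0, as did Palld and Myh11. Errfi1, Ckb, Crispld2, Sorbs2 and Csrp1 stayed below 0 over all members. At the first end, Ptn (-0.06), Grm7 (-0.38) and Ackr3 (-0.11) stood below 0 over all members. Crispld2, at the second end, stood at 575 CPM in fluconazole and 857 CPM in vehicle barcodes, -0.58 (-0.77 to -0.38), with a UMI in 43.0% in fluconazole and 48.7% in vehicle. Of the genes apart between treatments, Cp varied with Vtn (0.48 in fluconazole and 0.38 in vehicle), Plat less so (0.22 in fluconazole and 0.19 in vehicle), and Cd9 (-0.47 in fluconazole and -0.42 in vehicle), Eln (-0.40 in fluconazole and -0.45 in vehicle), Ramp1 (-0.28 in fluconazole and -0.33 in vehicle) and Auts2 (-0.23 in fluconazole and -0.34 in vehicle) varied against it. Weaker correlations with Vtn were found for Tns3, Epc2, Stt3b, Nsf, Dnm2, Homer1, Fbxo30, C1qb, Bcl2l13, Gpc6 and Cbx7. They ran from -0.15 (Homer1 in fluconazole) to 0.16 (Dnm2 in fluconazole). Homer1, although higher in fluconazole, varied weakly against Vtn (-0.15 in fluconazole and -0.11 in vehicle). A different makeup of barcodes along this range and a different level within barcodes cannot be told apart with 1 library per treatment.

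**Figure D5:**
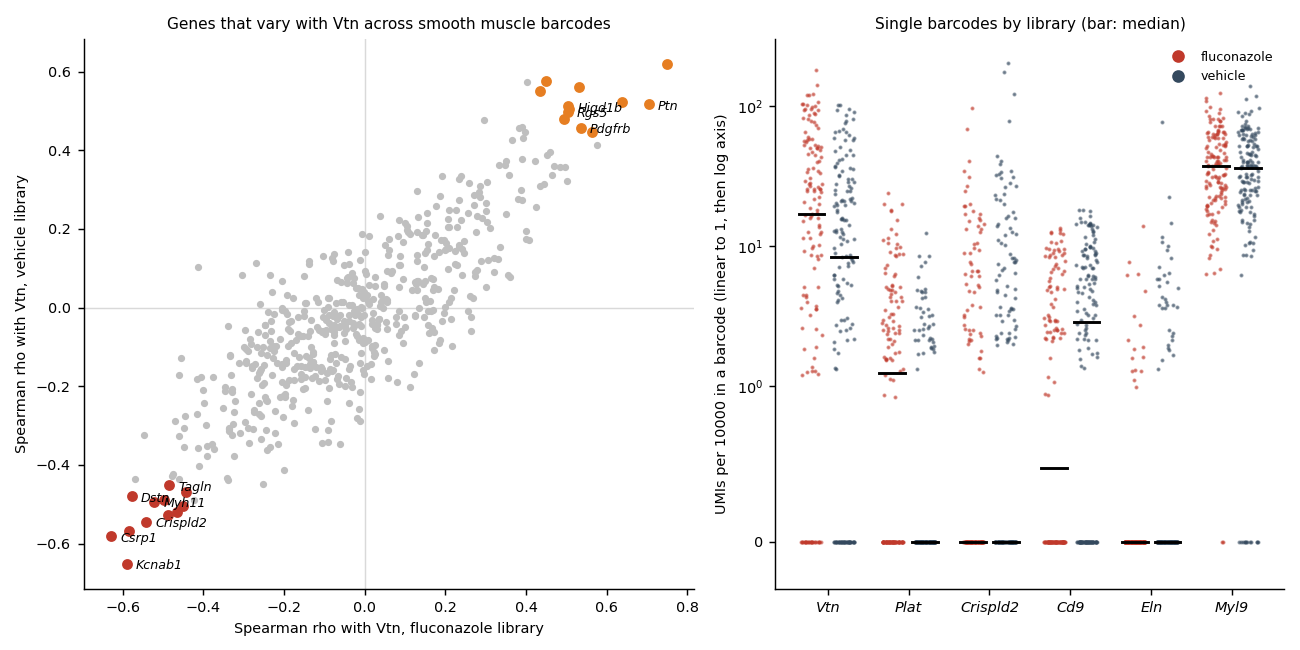
Left, Spearman's correlation with Vtn across unmixed smooth muscle barcodes in the fluconazole (x axis) and vehicle library (y axis) for 561 genes, with the 12 at each end in colour; right, UMIs per 10000 in each barcode (axis linear to 1, then log) for 6 genes, fluconazole left of vehicle, with the median as a bar. Ptn (0.70 in fluconazole and 0.52 in vehicle) lay at one end and Kcnab1 (-0.59 in fluconazole and -0.65 in vehicle) at the other, the median of Vtn was 17.1 in fluconazole and 8.41 in vehicle, and Myl9 had close medians of 37.2 in fluconazole and 36.3 in vehicle.

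Members also varied in genes outside this range. Excess variance, the variance beyond Poisson sampling at each barcode's depth relative to the squared mean, had a median of 0.18 in both libraries over 2105 genes in unmixed members (0.30 in fluconazole and 0.35 in vehicle over 3052 genes in all members). Actb (0.09 in each library) lay below that median, Myl9 had 0.18 in fluconazole and 0.25 in vehicle, and Acta2 had 0.39 in fluconazole and 0.42 in vehicle. Vtn had 1.12 in fluconazole and 1.25 in vehicle and Crispld2 2.30 in fluconazole and 2.21 in vehicle. The 12 most uneven genes included Slc1a2 (14.3 in fluconazole and 9.78 in vehicle) and Ntm (14.1 in fluconazole and 9.22 in vehicle), genes of neurons and astrocytes, in spite of the mixed barcodes being left out. They also included S100a6 (17.4 in fluconazole and 7.03 in vehicle), a calcium-binding protein found in 10.6% of fluconazole and 14.7% of vehicle barcodes with up to 17 UMIs in fluconazole and 11 in vehicle, Rrad, a regulator of calcium channels (6.65 in fluconazole and 4.52 in vehicle), the metallothionein Mt1 (3.77 in fluconazole and 3.91 in vehicle) and Anxa1 (13.9 in fluconazole and 4.28 in vehicle). The immediate early genes Fos and Egr1 varied together, with a Spearman's correlation of 0.77 in fluconazole and 0.74 in vehicle.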

How the data were processed

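The deposited values were raw UMI counts per gene and barcode, of 33696 features, in 1 matrix for each of 2 libraries. Per the submitters' processing notes the tools were Cell Ranger 9.0.0, Seurat 4.0.0 and R 4.0.3 with mm10, whereas the matrices carry Cell Ranger 8.0.1, per the file headers. Barcodes were filtered (at least 500 genes, at most 5% mitochondrial UMIs) and classed by marker UMIs. Pericytes held at least 3 UMIs of Kcnj8 and Abcc9, endothelial cells at least 5 of Flt1, Pecam1 and Mecom, fibroblasts at least 5 of Dcn, Col1a1, Col1a2 and Lum, and microglia at least 3 of Cx3cr1, with limits on the other classes' genes. Each of these classes held at most 1 UMI of Acta2, Myh11 and Tagln together. UMIs were summed per class and library and scaled to CPM. Log2 ratios and the ratio of shares have exact conditional binomial intervals, and levels exact Poisson intervals. Intervals and the floor of 3 counts cover counting error only. The intervals and the excess variance were tested on simulated data.

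Genes with at least 20 UMIs entered counts and lists. Named between treatments were the 10 higher and 10 lower genes ranked by the interval bound nearer to 0, the largest first, among those with at least 50 UMIs (no gene models, mitochondrial genes or genes with over 50% of UMIs in 1 barcode), between classes the 12 each way, and in lists the 3 with the most UMIs and up to 3 each way. All other genes named from the lists were chosen after their values were seen. A few genes named by these rules are not reported here. Members and lists were chosen with earlier results of these data known. The mixed barcode limit (fibroblast, microglia, oligodendrocyte, glutamatergic, GABAergic and blood lists, and the astrocyte list without 3 of its genes), the correlations with Vtn and their limit of 150 UMIs were chosen after seeing the data. Doublets were kept, as the rule names no caller, and Scrublet (scanpy 1.11.5, expected rate 8%) was an alternative, 1 of 11. Barcodes under 1500 UMIs were left out of thinned values (13 of 155 fluconazole and 13 of 184 vehicle members). Promoters were RefSeq sequences of GRCm38.p6. Python 3.11.15, numpy 2.4.6, scipy 1.17.1, pandas 2.3.3 and matplotlib 3.10.9 were used.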

Additional observations from a re-analysis of the deposited data

Results flagged for a closer look

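Vtn and Kazn stood above vehicle in smooth muscle and below it in pericytes, without mixed barcodes. The difference between the classes was not tested, since each treatment had 1 library. Vtn had a log2 ratio of fluconazole over vehicle of 0.79 (0.67 to 0.91) in smooth muscle and -0.085 (-0.14 to -0.03) in pericytes. Kazn had 0.44 (0.03 to 0.87) in smooth muscle, at 190 CPM in fluconazole and 140 CPM in vehicle, and -1.54 (-2.88 to -0.31) in pericytes, at 19.8 CPM (9 UMIs) in fluconazole and 57.6 CPM (18 UMIs) in vehicle.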

How the results depend on the processing

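No paired analysis was possible because each treatment had 1 library. The ratio of shares stayed between 0.97 and 1.11 under the 4 alternatives run on it. The counts of genes moved most with the minimum of UMIs and with the mixed barcodes, an alternative chosen after seeing the data. Genes at least 2-fold higher in fluconazole, 197 in the report, numbered 9 at 100 UMIs, 1117 with no minimum and 312 with barcodes weighted equally. Genes at least 2-fold lower, 587 in the report, numbered 134 at 100 UMIs, 1598 with no minimum, 220 after thinning and 202 without mixed barcodes. The higher genes made up 25.1% of both, 46.0% without mixed barcodes, 39.1% after thinning, 41.1% with no minimum and 6.29% at 100 UMIs, and centring on genes with 100 UMIs gave 18.2%. Lists with a median above 0 fell to 11 of 23 without mixed barcodes, against 18. Smooth muscle over pericytes had 352 higher and 308 lower genes at 100 UMIs, 1548 and 1309 with no minimum, and 422 higher after thinning, against 673 and 637. Smooth muscle over endothelial cells had 1149 higher genes at 100 UMIs and 4564 lower with no minimum, against 1863 and 2077. The UMI minimum changes which genes are counted, and the cause of the other moves was not tested.

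List medians that changed sign without mixed barcodes were those of the contractile apparatus (-0.040), channels (-0.061), cyclic nucleotides (-0.057), cholesterol biosynthesis (-0.056), IGF1 receptor and insulin signalling (-0.024), caveolae (-0.045), cytosolic ribosomal proteins (-0.13), immediate early genes (-0.10) and nuclear-retained RNAs (0.28), and Ralyl stood at 0.069. Channels also changed sign without doublets (-0.024), after thinning (-0.043) and with equal weights (-0.057), cyclic nucleotides with equal weights (-0.028) and the circadian list after thinning (-0.090).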
